A study of Mus musculus with 22 samples.

Results

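Transcript levels of macrophages that lacked both the protein kinases MK2 and MK3 were compared with those of wild-type (wt) macrophages after both had been treated with lipopolysaccharide (LPS). Arrays were included when their title named MK2/3-/- or wt bone marrow-derived macrophages (BMDM) and 360 min of LPS. This selected 4 MK2/3-/- and 3 wt arrays, 7 of the 22 arrays of the series, and all 22383 genes that passed the filter on dim probes were examined. The series also holds MK2-/- BMDM (4 LPS and 4 medium arrays) and wt and MK2/3-/- BMDM kept in medium without LPS (4 and 3 arrays). They were used to set the values of the 7 arrays beside those of other conditions. All cells came from male mice that the labels give as C57BL/6 (the methods name a C57BL/6J background for the knockouts). They were grown from femoral bone marrow for 9 days with 10 ng/ml of the growth factor M-CSF, and the LPS-treated cells received 100 ng/ml LPS. For the 7 arrays compared, the wt mice were 12, 13 and 12 weeks old and the MK2/3-/- mice 11, 12, 14 and 12 weeks old. The mice of the MK2-/- arrays were 10 to 13 weeks old. Those of the medium arrays were 12 to 13 (wt) and 11 to 12 weeks old (MK2/3-/-). The methods describe mice deficient in the kinases and name neither a Cre driver nor the deleted exons. They describe independent experiments, while the labels do not tie arrays to animals, so that p-values measure a spread between arrays. In the main test this spread was estimated for each gene within the groups of all 22 arrays. A standard error (SE) can therefore be larger or smaller than the 7 arrays alone would give.

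LPS, shed from the envelope of Gram-negative bacteria, is sensed by Toll-like receptor 4 (TLR4), which activates NF-kB, the mitogen-activated protein kinases including p38, and the interferon regulatory factors. MK2 (gene Mapkapk2) and the closely related MK3 (Mapkapk3) are serine/threonine kinases activated by p38. They are best known for phosphorylating tristetraprolin (Zfp36), a protein that binds AU-rich elements of cytokine mRNAs and promotes their decay, and the small heat shock protein Hspb1.

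In LPS-treated MK2/3-/- BMDM, the transcription factor genes Cebpd and Cebpb, the acute-phase genes Saa2 and Hp and the cytokine genes Il10 and Il1f9 were lower than in wt BMDM, the cytokine gene Il12a was higher, and no antiviral interferon-stimulated gene passed limma's test. Of the lists examined, 6 of 17 C/EBP and acute-phase genes, 11 of 28 DNA replication genes and 9 of 25 mitosis genes were lower. The replication and mitosis counts were as low as 4 and 3 when 1 array was left out (wt replicate 3 for replication, wt replicate 1 or 3 for mitosis), and stromal markers followed the same order over the MK2/3-/- arrays. In limma's moderated test 5281 genes (23.6% of those tested) passed an adjusted p below 0.05, which is called a difference throughout. Of these, 2150 (9.61% of the genes tested) were higher and 3131 (14%) were lower in MK2/3-/- BMDM. The median difference of the genes called was 1.07 on the log2 scale for those higher and -1.27 for those lower. At least 4-fold differences were called for 221 genes that were higher and 549 that were lower. All values below are log2 processed signals after quantile normalisation, and differences are MK2/3-/- minus wt on that scale unless stated otherwise.

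The 4 MK2/3-/- arrays lay on 1 slide and were scanned together, and the 3 wt arrays lay on another, so genotype, slide and scan cannot be told apart in any difference given here. Median processed signals were 79.4, 32.7 and 41.9 on the wt arrays and 81.6, 72.2, 54.1 and 72.7 on the MK2/3-/- arrays. The share of probes well above background was 61.1% to 75.9% in wt and 66.8% to 71.1% in MK2/3-/- BMDM. The arrays did not overlap between the genotypes for 6321 genes (28.2%), among them 4507 of the genes called. With 3 against 4 arrays an exact two-sided permutation test cannot give a p below 0.0571. With signals scaled to the 75th percentile in place of quantile normalisation, the median over all genes moved from -0.02 to 0.15 and 8195 genes were called, 4693 higher and 3502 lower, so that the higher calls became the more numerous. Without wt replicate 1, 3500 genes were called, and a fit to only the 7 arrays called 1464.

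The deleted genes followed the labels. Mapkapk2 measured 15.07, 14.28 and 15.33 on the wt arrays and 10.92, 11.22, 10.86 and 11.08 on the MK2/3-/- arrays. The groups were far apart, and the difference of -3.87 ± 0.31 (SE, n = 3 and 4; limma adjusted p = 2.39e-06) corresponded to a 14.6-fold lower signal. Mapkapk3 measured 11.94, 12.18 and 12.23 against 7.65, 8.08, 7.73 and 8.55, again without overlap (-4.11 ± 0.24, adjusted p = 1.53e-08). Both probes stayed well above background on all 4 MK2/3-/- arrays, and whether they lie within the deleted parts is not given in the sources used here. The related kinase gene Mapkapk5 differed by -0.06 (adjusted p = 0.79). In MK2-/- BMDM under LPS, compared with the same wt arrays, Mapkapk2 was lower by -3.28 (adjusted p = 2.69e-05) and Mapkapk3 differed by 0.23 (adjusted p = 0.55).

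Among genes whose arrays did not overlap between the genotypes and that were well above background on all arrays of the brighter group, the largest positive difference belonged to Ctse, which encodes the aspartic protease cathepsin E. It measured 2.51, 9.33 and 3.73 on the wt arrays and 10.50, 9.87, 9.66 and 10.77 on the MK2/3-/- arrays. The MK2/3-/- arrays were close together and above every wt array, while the wt arrays themselves spanned the scale (5.01 ± 1.15, adjusted p = 0.0045). P2ry13, a receptor for ADP, measured 7.74, 8.34 and 6.85 in wt and 12.64, 11.93, 9.93 and 9.86 in MK2/3-/- BMDM (3.45 ± 0.75, adjusted p = 0.0033). All MK2/3-/- arrays were higher, replicates 1 and 2 most of all. The regulator of G protein signalling Rgs1 measured 11.84, 13.11 and 13.51 in wt and 16.82, 16.04, 15.11 and 15.73 in MK2/3-/- BMDM (3.10, adjusted p = 0.0021). Further genes among the 12 with the largest positive differences were Ell3, an elongation factor of RNA polymerase II (3.32), Sele, the adhesion molecule E-selectin (3.22), the secreted protein gene Otor (3.18) and Il12a (3.17). Upk3a (3.52), Fgf15 (3.23) and Dlx6 (3.06) were near the bottom of the scale on some wt arrays, and Wdr72 and Dsc3 were not well above background on any wt array, which gives signals at least 4.65-fold and at least 2.08-fold higher. Such a bound compares the mean of the brighter group with the mean, over the dim arrays, of the higher of the probe's own signal and the lowest signal of any probe well above background on that array. Leaving out wt replicate 1 ended the calls of Wdr72 (adjusted p = 0.052) and Dlx6 (0.055), and leaving out wt replicate 2 that of Fgf15 (0.072).

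Among the same genes the largest negative difference belonged to Saa2, an acute-phase serum amyloid A gene described further below. Abhd14b, a hydrolase gene, measured 8.55, 8.92 and 8.89 against 4.34, 3.18, 4.87 and 4.40 (-4.59 ± 0.38, adjusted p = 2.6e-06), and the adjacent Abhd14a differed by -4.08. Thrombomodulin (Thbd), an anticoagulant surface protein, differed by -4.29, and Il1f9, the gene of the cytokine IL-36 gamma, by -4.12. Among the zinc finger genes, Zfp599 differed by -4.13 and Zfp324 was at least 5.71-fold lower, since it was not well above background on any MK2/3-/- array. Prokr1, a receptor for prokineticins, was at least 4.74-fold lower for the same reason. Gpr35 differed by -3.99 on the brightest of its probes, whereas its other probes differed by -1.52 (adjusted p = 0.017) and 0.15 (adjusted p = 0.86), so that its direction depended on the probe.

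**Figure D1:**
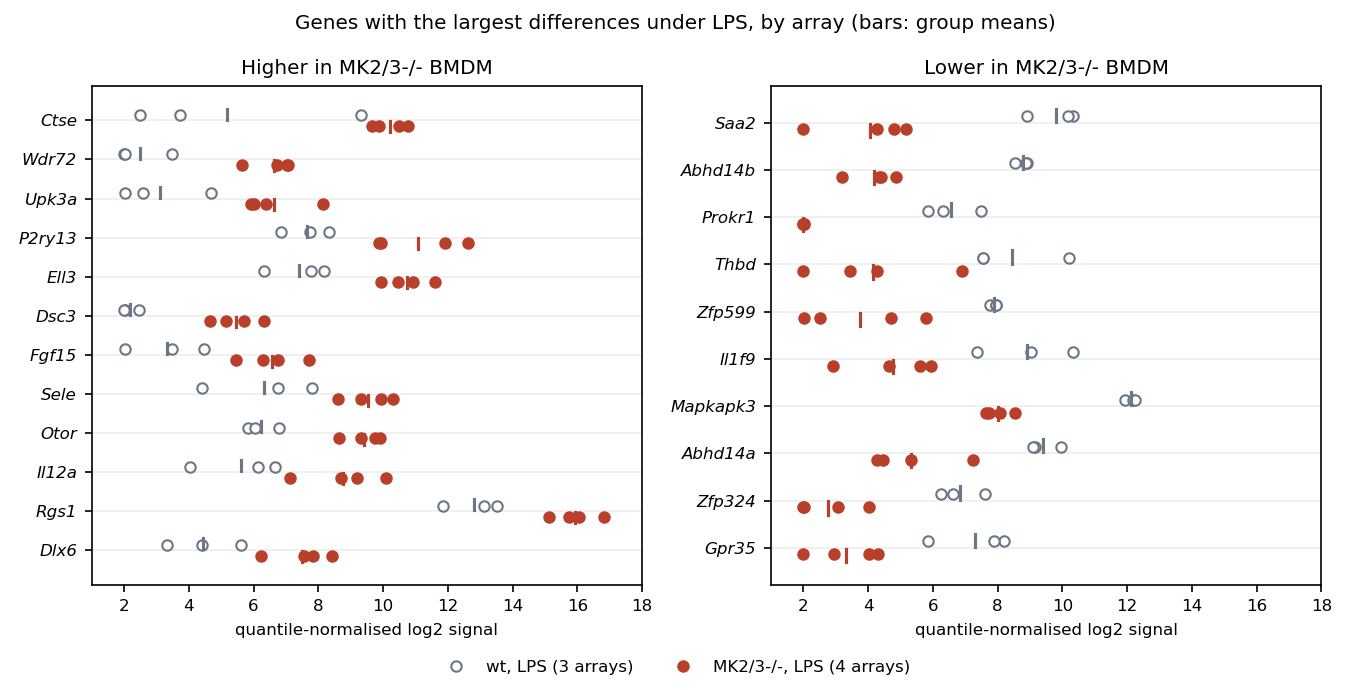
Log2 processed signal (horizontal axis, after quantile normalisation) on each of the 3 wt and 4 MK2/3-/- LPS arrays for the 12 genes with the largest positive difference and 10 of the 12 with the largest negative difference (vertical axis). Each point is an array and each bar a group mean. The MK2/3-/- points lie above all wt points in the first panel and below them in the second, and Ctse spans 2.51 to 9.33 on the wt arrays.

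Genes were next sorted by how they respond to LPS, using MK2-/- BMDM, whose arrays are not part of the comparison. A gene was LPS-induced or LPS-repressed when its LPS response in MK2-/- BMDM was called and at least 4-fold. These cells share the loss of MK2 with MK2/3-/- BMDM. A gene that this loss lowers under LPS enters the repressed class more easily and the induced class less easily. The classes are therefore not independent of the comparison, and the part of this in the shares below was not tested. Of 1827 LPS-repressed genes, 883 (48.3%) were lower and 28 (1.53%) were higher in LPS-treated MK2/3-/- than in wt BMDM, with a median difference of -1.02. Of 1153 LPS-induced genes, 78 (6.76%) were lower and 98 (8.50%) were higher, with a median of 0.10. Of the 19403 other genes, 11.2% were lower and 10.4% higher, with a median of 0.02. The share of repressed genes that were lower thus lay above the 14% of all genes tested, and the LPS-induced genes held fewer calls than all genes in both directions. At 6 to 8 on the log2 scale 62.5% of the repressed and 14.0% of the other genes were lower, and at 10 to 12 the shares were 30.8% and 13.2% (a split by level chosen after seeing the data). The share of repressed genes that were lower ranged from 36.4% to 55.0% when single arrays were left out and was 40.7% with 75th percentile scaling. The share of induced genes that were higher was 4.25% without wt replicate 1 and 5.64% without MK2/3-/- replicate 1, and the share that were lower was 4.42% without wt replicate 1.

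**Figure D2:**
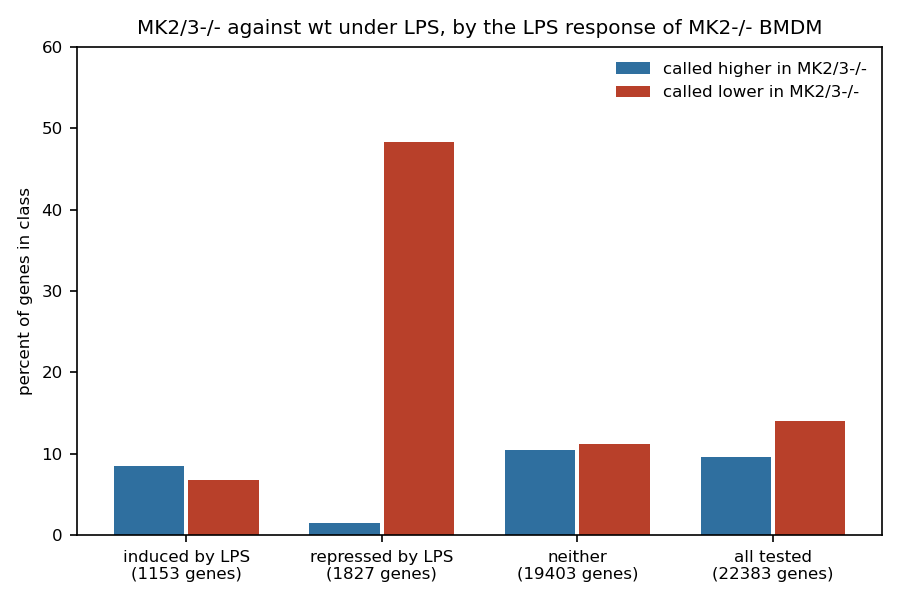
Percentage of genes (vertical axis) called higher or lower in LPS-treated MK2/3-/- than in wt BMDM, for genes that LPS induced, repressed or did neither in MK2-/- BMDM. The bar of the repressed genes that were lower reaches 48.3%, and the next highest, that of all tested genes that were lower, 14%.

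Among the LPS-repressed genes, further large negative differences were those of Bub1, Spag5 and Tube1. Bub1, a spindle checkpoint kinase, differed by -3.57, Spag5, a spindle protein, by -3.43, and Tube1, a member of the tubulin family, by -3.53. Few repressed genes were higher. Rgs2, a further regulator of G protein signalling, measured 10.94, 11.12 and 11.57 in wt and 13.97, 13.24, 12.77 and 12.99 in MK2/3-/- BMDM (2.03 ± 0.29, adjusted p = 0.00014). All MK2/3-/- arrays exceeded all wt arrays, and the LPS response of Rgs2 was -4.76 in wt and -2.94 in MK2/3-/- BMDM. N4bp2l1 (2.91), Tcl1b2 (2.31), the proton-sensing receptor gene Gpr65 (1.64), Smagp (1.63) and Asphd1 (1.73) were also higher, and Asphd1 lost its call without wt replicate 1 or MK2/3-/- replicate 1, 2 or 3 (adjusted p up to 0.25).

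Most of the 17 tested genes of the C/EBP transcription factors and acute-phase proteins had negative differences, with a median of -0.60 against -0.02 for all genes. In medium the median of the list was -0.52, and the median difference of the LPS response was -0.10. Under LPS 6 were lower and 0 higher, beside 14% of all genes lower and 9.61% higher. Acute-phase proteins are secreted early in inflammation, and C/EBP beta and delta are transcription factors that act on their promoters. Saa2 measured 10.33, 10.16 and 8.92 on the wt arrays and 1.99, 4.81, 5.18 and 4.26 on the MK2/3-/- arrays. The groups were separated by more than 3 log2 units (-5.74 ± 0.81, adjusted p = 0.00013), and its LPS response was 6.82 in wt and 2.08 in MK2/3-/- BMDM. The difference of these Saa2 responses was not called. Haptoglobin (Hp), which binds free haemoglobin, measured 12.74, 11.87 and 10.57 against 8.01, 8.68, 7.66 and 9.45 (-3.28 ± 0.56, adjusted p = 0.00057). Cebpd measured 16.10, 16.40 and 16.56 in wt and 13.40, 14.64, 14.01 and 14.37 in MK2/3-/- BMDM, with every MK2/3-/- array below every wt array (-2.25 ± 0.33, adjusted p = 0.00017). Its response to LPS was 2.87 in wt and 0.28 in MK2/3-/- BMDM.

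The other lower members of that list were chosen for naming after their values were seen. Orm1, an acute-phase glycoprotein gene, was not well above background on any MK2/3-/- array and was at least 1.11-fold lower, a call lost without wt replicate 1 or 3 or MK2/3-/- replicate 2 or 4 (adjusted p up to 0.12) and with 75th percentile scaling (0.32) or with normexp, an alternative background correction (0.11). Cebpb measured 15.82, 15.97 and 15.74 in wt and 14.70, 15.09, 14.27 and 14.89 in MK2/3-/- BMDM (-1.10 ± 0.26, adjusted p = 0.0048). Lcn2, the iron-withholding protein lipocalin 2, measured 16.30, 16.30 and 15.69 against 13.14, 14.18, 15.40 and 13.52, with MK2/3-/- replicate 3 close to the wt arrays. Its difference of -2.04 (adjusted p = 0.017) was no longer called without wt replicate 1 (0.062), wt replicate 2 (0.053) or MK2/3-/- replicate 1 (0.057). Saa3, the brightest member not called, differed by -1.73 (adjusted p = 0.20). Steap4, a metalloreductase gene outside the list and one of the LPS-induced genes with the largest negative difference, measured 8.83, 8.09 and 7.36 in wt and 2.73, 4.51, 4.47 and 6.51 in MK2/3-/- BMDM (-3.54 ± 0.55, adjusted p = 0.0003). In MK2-/- BMDM, set against the same wt arrays, Cebpd differed by -0.92 (adjusted p = 0.071), Cebpb by -0.07 (0.88) and Saa2 by -1.69 (0.17), and Steap4 by -2.15 (0.020). The direct difference between MK2/3-/- and MK2-/- BMDM under LPS was -1.33 for Cebpd (adjusted p = 0.0064) and -4.05 for Saa2 (0.0014).

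Promoter sequences of RefSeq (GRCm38.p6) were searched for the word TTGCNNAA, the core of the palindrome that C/EBP proteins bind, on both strands of the 250 bases before each annotated start. The word stood in 9.56% of 32851 windows and in 10.0% of the 14568 tested genes that had a window. It stood in 15.1% of 800 LPS-induced genes, in 9 of 54 induced genes that were lower (16.7%) and in 7 of 62 that were higher (11.3%). In the acute-phase list it stood in 8 of the 12 tested genes with a window and in 2 of the 3 that were lower, 66.7% in both. Such a match describes the sequence and is no measurement of binding. The windows of 3 lower genes are printed 5′ to 3′ with the match in capitals, which begins 183, 216 and 87 bases before the start of Saa2, Lcn2 and Steap4, at chr7:46751583-46751832 (plus strand), chr2:32387740-32387989 (minus strand) and chr5:7960222-7960471 (plus strand).
Saa2: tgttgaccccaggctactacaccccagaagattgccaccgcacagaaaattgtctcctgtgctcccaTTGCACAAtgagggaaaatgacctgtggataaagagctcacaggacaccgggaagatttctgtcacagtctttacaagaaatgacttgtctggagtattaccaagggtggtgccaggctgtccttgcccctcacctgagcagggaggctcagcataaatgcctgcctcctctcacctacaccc
Lcn2: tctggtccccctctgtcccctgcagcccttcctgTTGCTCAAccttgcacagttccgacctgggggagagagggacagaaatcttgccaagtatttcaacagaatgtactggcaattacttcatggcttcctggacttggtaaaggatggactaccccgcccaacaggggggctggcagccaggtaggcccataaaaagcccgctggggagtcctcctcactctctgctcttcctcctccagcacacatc
Steap4: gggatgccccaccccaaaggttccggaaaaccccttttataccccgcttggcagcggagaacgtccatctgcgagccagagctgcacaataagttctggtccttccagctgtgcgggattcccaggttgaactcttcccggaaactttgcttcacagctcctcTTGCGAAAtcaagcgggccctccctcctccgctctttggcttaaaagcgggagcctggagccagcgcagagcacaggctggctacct

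Genes of DNA replication and of mitosis showed the largest median differences of the pathway lists apart from the deleted kinases. Of 28 tested replication genes 11 were lower and 0 higher (median -1.44, and -0.51 in medium), and of 25 mitosis genes 9 were lower and 0 higher (median -1.54, and -0.46 in medium), beside a background of 14% lower. Mcm2, a subunit of the replicative helicase, measured 8.82, 8.99 and 9.48 in wt and 2.54, 5.13, 7.38 and 7.99 in MK2/3-/- BMDM. All 4 MK2/3-/- arrays were below the wt arrays but were spread over more than 5 log2 units, replicates 3 and 4 being nearest to wt (-3.34 ± 0.86, adjusted p = 0.0094). Prim1, the primase subunit, differed by -2.22, and Rrm2, a subunit of ribonucleotide reductase, by -2.06, with arrays that overlapped. Among genes chosen after their values were seen, Mcm4 differed by -1.60, Gins1 by -1.75 and Mcm6 by -2.06. Bub1, Bub1b (-2.30), a further checkpoint kinase, and Top2a (-2.05), the topoisomerase of dividing cells, led the mitosis list. Not all members followed, since Cdt1 (0.68, adjusted p = 0.19), Mki67 (-0.39, adjusted p = 0.58) and Tpx2 (0.55, adjusted p = 0.35), bright members of the lists, were not called.

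The mean level of the replication list was 9.81, 9.69 and 10.24 on the wt arrays and 7.66, 8.25, 9.26 and 9.74 on the MK2/3-/- arrays, and that of the mitosis list 8.51, 7.69 and 8.53 against 6.28, 6.53, 7.16 and 8.0. MK2/3-/- replicates 1 and 2 were thus below all wt arrays and replicate 4 lay within or next to the wt range. The counts depended on these arrays. Without MK2/3-/- replicate 4, 18 replication genes were called, and 4 without wt replicate 3, 5 without wt replicate 1 or MK2/3-/- replicate 1, and 6 without MK2/3-/- replicate 2. For the mitosis list the counts were 12 without MK2/3-/- replicate 4, 3 without wt replicate 1 or 3, 4 without MK2/3-/- replicate 1 and 5 without replicate 2 or 3, and 5 with 75th percentile scaling. With MK2/3-/- replicates 3 and 4 both left out, which was chosen after seeing the data, 19 and 16 were called. Rrm2, Prim1 and Top2a lost their calls when any of 4 or 5 single arrays was left out, with adjusted p-values up to 0.15, 0.10 and 0.12. With normexp background correction Bub1b differed by -0.69 (adjusted p = 0.23) and Rrm2 by -1.68 (0.060), and neither was called.

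Markers of other cells were set beside these lists, and counts of markers called stand beside 9.61% of all genes higher and 14% lower. The summed signal of 6 tested fibroblast or stromal markers was 15.90, 13.56 and 14.38 on the wt arrays and 10.83, 11.06, 13.18 and 14.90 on the MK2/3-/- arrays, in the same order over the MK2/3-/- arrays as the replication and mitosis lists. On the wt arrays the stromal sum was highest on replicate 1 (15.90), and the replication and mitosis lists on replicate 3 (10.24 and 8.53). None of the 6 markers passed the test in limma, nor an unadjusted p below 0.05 in limma or the methods' t-test. Their differences ranged from -3.35 (Col1a1) to 1.85, with a median of -0.57. Col1a1 measured 13.56, 11.59 and 12.50 in wt and 5.77, 7.26, 10.60 and 13.16 in MK2/3-/- BMDM (-3.35 ± 2.03, adjusted p = 0.24), and Hspb1, the MK2 substrate, 14.23, 10.49 and 11.38 against 6.71, 7.40, 9.60 and 12.08 (-3.09 ± 1.52, adjusted p = 0.15), both chosen after their values were seen. The part of such cells in the cell cycle result was not tested, and in these bulk samples fewer cells of a type and less RNA per cell cannot be told apart. All 8 tested macrophage markers were measured above background and none was called by limma (1 higher at an unadjusted p below 0.05, and 1 lower by the methods' t-test), with summed signals of 18.8 to 18.9 in wt and 18.8 to 19.1 in MK2/3-/- BMDM (Adgre1, a macrophage surface antigen, differed by 0.32, adjusted p = 0.35). Of 7 dendritic cell markers, Clec9a (2.98, adjusted p = 0.0013) and Xcr1 (at least 2.64-fold higher) were higher, and the summed signal was 15.7 to 16.3 in wt and 16.1 to 16.7 in MK2/3-/- BMDM. Of 9 neutrophil markers the calprotectin subunit S100a8 was lower (-3.11, adjusted p = 0.0094), with summed signals of 12.9 to 13.6 and 12.1 to 13.8. Of 6 tested T or NK cell markers Cd4 was higher (1.06, adjusted p = 0.013). Their summed signal was 12.4 to 12.5 in wt and 12.7 to 13.5 in MK2/3-/- BMDM, without overlap. In each of the B cell and mast cell lists 1 marker was called, and 2 in the osteoclast list.

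**Figure D3:**
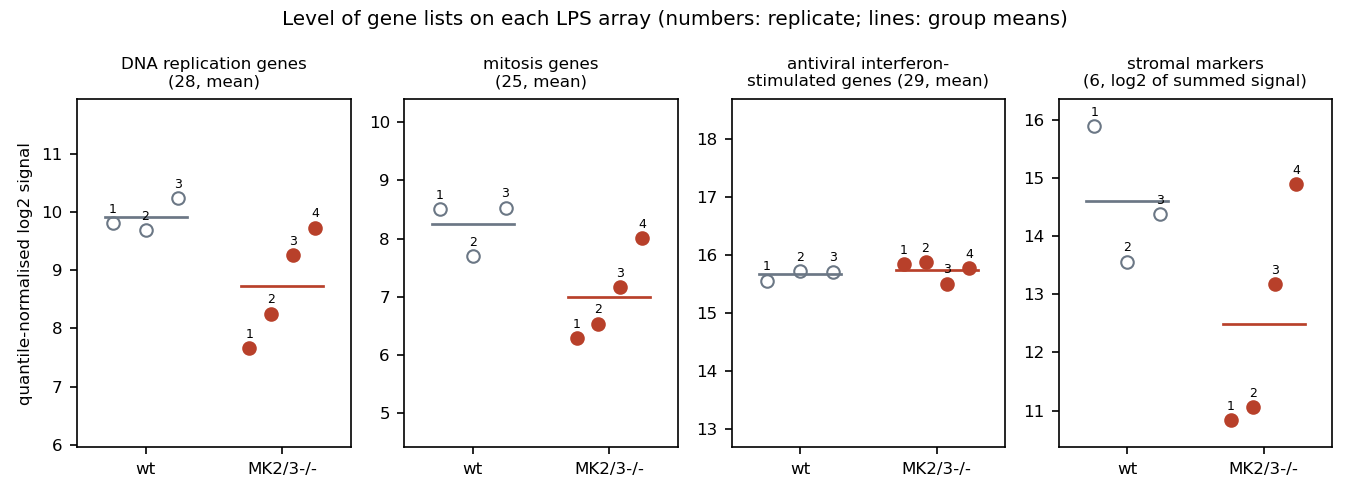
Mean log2 signal of the DNA replication, mitosis and antiviral interferon-stimulated gene lists and log2 summed signal of the stromal markers (vertical axes) on the 3 wt and 4 MK2/3-/- LPS arrays. MK2/3-/- replicates 1 and 2 are lowest in the replication, mitosis and stromal panels (7.66 and 8.25, 6.28 and 6.53, 10.83 and 11.06), and the interferon panel stays between 15.50 and 15.87 on all 7 arrays.

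Words bound by E2F factors, which drive replication genes (TTTCCCGC, TTTGGCGC, TTTCGCGC or TTTGCCGC, both strands), stood in 1.86% of the promoter windows, in 3.06% of tested genes, in 7 of 24 replication genes and in 1 of 20 mitosis genes with a window. Of the replication genes that were lower, 3 of 9 with a window held one. Mcm6, a helicase subunit chosen after its values were seen, measured 14.19, 13.75 and 14.55 in wt and 11.18, 10.77, 13.39 and 13.08 in MK2/3-/- BMDM, all MK2/3-/- arrays being lower (adjusted p = 0.012, and 0.052 without wt replicate 3). Its window at chr1:128359706-128359955 (minus strand) held 3 matches, in capitals, beginning 110, 106 and 47 bases before the start, and the matches at 110 and 106 overlap.
Mcm6: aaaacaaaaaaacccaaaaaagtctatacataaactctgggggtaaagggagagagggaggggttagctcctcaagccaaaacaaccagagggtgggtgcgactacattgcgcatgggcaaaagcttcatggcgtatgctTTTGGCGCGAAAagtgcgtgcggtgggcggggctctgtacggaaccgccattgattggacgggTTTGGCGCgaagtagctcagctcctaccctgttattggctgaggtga

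Most genes that had been assayed by RT-qPCR in the study were chosen on these samples and are not independent evidence of a direction, while Il10 and Ifnb1 were known to the authors from earlier work on these kinases. Of the 11 tested, 3 were lower (27.3%, beside 14% of all genes) and 0 higher. Il10, the anti-inflammatory cytokine, measured 13.51, 14.28 and 14.49 in wt and 10.64, 11.76, 12.20 and 12.48 in MK2/3-/- BMDM. Every MK2/3-/- array was below every wt array (-2.32 ± 0.48, adjusted p = 0.0022), and the LPS response of Il10 was 6.52 in wt and 5.02 in MK2/3-/- BMDM. The difference of these responses was not called by limma (adjusted p = 0.39). Il4ra, the receptor chain shared by IL-4 and IL-13, measured 14.24, 13.01 and 12.63 against 9.93, 10.69, 10.56 and 10.27 (-2.93 ± 0.32, adjusted p = 3.2e-05), although its other probe differed by -0.17 (adjusted p = 0.85). Il19, a cytokine of the IL-10 family, measured 14.25, 13.74 and 12.19 against 9.62, 11.71, 11.47 and 11.91 (-2.22, adjusted p = 0.030). The Il19 arrays nearly met, and the call was lost without wt replicate 1 (adjusted p = 0.14), wt replicate 2 (0.089) or MK2/3-/- replicate 1 (0.098). Cxcl9, an interferon-inducible chemokine, measured 14.67, 15.43 and 14.86 in wt and 17.19, 17.39, 16.78 and 16.94 in MK2/3-/- BMDM, without overlap and short of the threshold (2.09 ± 0.86, adjusted p = 0.087), whereas its other probe passed it (2.52, adjusted p = 0.0044). Ifnb1, the interferon beta gene, measured 10.79, 10.89 and 12.89 against 9.77, 8.45, 10.07 and 10.70 (-1.78 ± 0.74, adjusted p = 0.090), and differed by -2.84 in MK2-/- BMDM (adjusted p = 0.022). Cxcl2 (-0.41), Cxcl3 (-1.42), Hdc (-0.45), Nod1 (-0.26), C1ra (0.40) and Serpina3f (0.73) were not called.

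Other cytokine genes differed in both directions, and their counts stand beside 9.61% of all genes higher and 14% lower. Il12a, a subunit of IL-12, measured 4.03, 6.66 and 6.12 in wt and 9.20, 10.09, 7.12 and 8.70 in MK2/3-/- BMDM. All MK2/3-/- arrays were higher, replicate 3 by the least (3.17 ± 0.54, adjusted p = 0.00061), and its LPS response was 3.60 in wt and 6.79 in MK2/3-/- BMDM. The difference of these Il12a responses was not called. Tnfsf15 (1.32) was also higher, but lost its call without any of 6 single arrays (adjusted p up to 0.099) and with 75th percentile scaling (0.054). Of the 22 other cytokines tested, 5 were lower, among them Il1f9, the epidermal growth factor family member Ereg (-3.73, adjusted p = 0.014, and 0.093 without wt replicate 1), Il7 (-2.36, adjusted p = 0.019, and 0.062 without wt replicate 1, 0.052 without wt replicate 3 and 0.076 with 75th percentile scaling) and, chosen after its values were seen, Pdgfa (-2.08). Among the 22 genes listed for AU-rich elements, Csf3, the growth factor of granulocytes, measured 10.53, 10.33 and 9.19 in wt and 5.77, 8.04, 8.22 and 6.25 in MK2/3-/- BMDM (-2.95 ± 0.74, adjusted p = 0.0080). It was lower with Il10, and Osm, the cytokine oncostatin M, was higher (0.88, adjusted p = 0.0074). The other 19 were not called. Tnf, Il6 and Il1a, chosen for naming after their values were seen, differed by 0.53 (adjusted p = 0.44), 0.32 (0.84) and 0.32 (0.82), and Il1b by 0.10 (0.94). In medium Il1a was lower in MK2/3-/- BMDM (-3.97, adjusted p = 0.027), and Il6 differed by -3.63 (0.052).

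Interferon and chemokine genes were read against the 9.61% of all genes that were higher and the 14% that were lower. None of 29 antiviral interferon-stimulated genes was called by limma, and their differences ranged from -0.68 to 0.58 with a median of 0.08. At an unadjusted p below 0.05 limma gave 0 higher and 1 lower, and the methods' t-test 4 higher and 2 lower, of which 1 passed after adjustment. Their mean level was 15.56, 15.72 and 15.71 on the wt arrays and 15.84, 15.87, 15.50 and 15.78 on the MK2/3-/- arrays, so the groups overlapped. Among 16 genes of the type I interferon pathway 2 were higher (12.5%), the transcription factor gene Irf8 (1.55, adjusted p = 0.0082, and 0.99 with adjusted p = 0.068 without wt replicate 1) and Ifna4 (1.80, adjusted p = 0.0090, and 0.066 without wt replicate 2). The guanylate-binding proteins and immunity-related GTPases held 1 higher (Gbp10, 1.28) and 1 lower member (Igtp, -0.74) of 15. Of 9 CXC chemokines, each on its brightest probe, 0 were called by limma (2 higher and 0 lower at an unadjusted p below 0.05, and 2 and 1 by the methods' t-test). The other probe of Cxcl9 passed limma's test (2.52, adjusted p = 0.0044). Of 13 CC chemokines Cx3cl1 was lower (-2.04, adjusted p = 0.026). Of 14 chemokine receptors 4 were called (28.6%, beside 23.6% of all genes). The 3 that were higher held Ccrl2 (1.38, adjusted p = 0.0010) and Cxcr3 (1.69), and Cxcr4 was lower (-2.27). Gbp10, Igtp and Cx3cl1 lost their calls without wt replicate 1 (adjusted p = 0.28, 0.17 and 0.13) and without several other single arrays, and Cxcr4 without wt replicate 3 (0.087). With 75th percentile scaling Gbp10 (adjusted p = 0.060) and Cxcr4 (0.052) were not called, and with normexp Cxcr4 differed by -0.62 (0.076).

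Of 23 genes of p38 kinases, their activators and parallel effectors, 2 were higher and 4 lower (26.1% called, beside 23.6% of all genes tested). Mapk14, which encodes p38 alpha, measured 11.61, 10.84 and 11.06 in wt and 7.92, 8.82, 9.22 and 9.95 in MK2/3-/- BMDM. The groups did not overlap (-2.19 ± 0.34, adjusted p = 0.00026), a second probe differed by -1.17 (adjusted p = 0.0071), and in medium the difference was -0.10 (adjusted p = 0.92). Tab1, an adaptor that binds p38 alpha, was lower (-1.62 ± 0.23, adjusted p = 0.00015), as was Map2k6, a p38 activator (-1.62, adjusted p = 0.0093). Map2k6 lost its call without wt replicate 3 (0.068), with 75th percentile scaling (-0.71, adjusted p = 0.17) and with normexp background correction (-0.38, adjusted p = 0.12). The kinases Mknk1 (0.61) and Mknk2 (0.61), which p38 and ERK activate, were higher and lost their calls with 75th percentile scaling (adjusted p = 0.17 and 0.18), and Mknk1 also without wt replicate 1 (0.15). Of 22 genes of mRNA stability factors 5 were lower and 0 higher (22.7% called). They were Tia1 (-1.79, adjusted p = 0.00093) and Tial1 (-0.66), which bind AU-rich mRNA in stress granules, and the tristetraprolin family genes Zfp36 (-1.04, adjusted p = 0.039), Zfp36l1 (-1.04, adjusted p = 0.015) and Zfp36l2 (-0.90, adjusted p = 0.011). Tial1 and Zfp36l2 were named after their values were seen. The arrays overlapped for Zfp36, and its call ended without any of 5 single arrays (adjusted p up to 0.14). Zfp36l1 lost its call without wt replicate 1 (0.068) or 2 (0.072), and Zfp36l2 without wt replicate 1 (0.052).

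Immediate-early and feedback genes differed in both directions, beside 9.61% of all genes tested higher and 14% lower. The median difference was -0.07 for the immediate-early list and -0.20 for the feedback list. The shares called were 30.4% for immediate-early genes, 20% for feedback inhibitors and 14.3% for the NF-kB list. They were 17.6% for the TLR4 list and 15.4% for NOD-like receptor and inflammasome genes, beside 23.6% of all genes tested. Of 23 immediate-early genes linked to the factors SRF and AP-1, 5 were higher and 2 lower, and 3 were higher without wt replicate 1. Ier5 measured 9.97, 10.48 and 11.24 in wt and 12.51, 12.55, 12.26 and 12.53 in MK2/3-/- BMDM, with MK2/3-/- arrays close together above the wt range (1.90 ± 0.25, adjusted p = 8.3e-05). The nuclear receptor gene Nr4a2 (1.94, adjusted p = 0.0099) and Egr2 (1.61, adjusted p = 0.030) were higher and lost their calls without wt replicate 1 (0.080 and 0.12), and Egr2 also without any of 3 further arrays. Fosl2, an AP-1 subunit, was lower (-1.30, adjusted p = 0.0026), as was the adhesion protein gene Vcl (-1.86, adjusted p = 0.032), whose call ended without wt replicate 1 (0.19) and 3 other arrays. Among 20 feedback inhibitors of signalling, Spry2 (2.00, adjusted p = 0.0028), Dusp4 (1.82) and Atf3 (0.97) were higher and Pdlim2, which restrains NF-kB and STAT factors, was lower (-2.42 ± 0.35, adjusted p = 0.00022). Dusp4 and Atf3 were no longer called without wt replicate 1 (adjusted p = 0.099 and 0.11), and Atf3 also without any of 3 further arrays and with 75th percentile scaling (0.076). The NF-kB list held 1 higher member, Nfkbid (0.76), which lost its call without wt replicate 2 (0.060), and 1 lower of 14, Bcl3, an atypical IkB protein (-1.39, adjusted p = 0.0016). Of 17 genes of the TLR4 complex and its adaptors, Ticam1 was higher (0.83) and Tirap (-0.91) and Map3k8 (-0.71) were lower, the last no longer without any 1 of 6 arrays (adjusted p up to 0.12). Among 13 NOD-like receptor and inflammasome genes Nlrp3 was higher (0.90) and Nlrc4 lower (-1.94).

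Metabolic lists were examined next, beside 9.61% of all genes higher and 14% lower. Pfkfb3, which drives glycolysis through fructose 2,6-bisphosphate, measured 16.12, 16.15 and 15.71 in wt and 12.75, 13.89, 13.23 and 13.69 in MK2/3-/- BMDM. No arrays overlapped (-2.61 ± 0.38, adjusted p = 0.00020), and its LPS response was 5.05 in wt and 2.72 in MK2/3-/- BMDM. The difference of these Pfkfb3 responses was not called. Of 18 glycolysis genes 2 were lower (11.1%), Pfkfb3 and Eno1 (-0.94, and -0.59 with adjusted p = 0.18 without wt replicate 1, with the call also lost without MK2/3-/- replicate 2 or 4). Abca1, the cholesterol exporter, measured 11.98, 11.70 and 10.09 against 8.36, 9.96, 7.90 and 8.05 (-2.69 ± 0.61, adjusted p = 0.0041), whereas Mylip, a ligase that degrades the LDL receptor, was higher (2.41 ± 0.32, adjusted p = 8.3e-05). The cholesterol list held 1 higher and 2 lower of 22 (13.6% called). The arginases Arg2 (-3.13, adjusted p = 0.0017) and Arg1 (-2.45, adjusted p = 0.0095, and 0.071 without wt replicate 1 and 0.079 with 75th percentile scaling) were lower, and 0 of the 19 genes of nitric oxide, arginine, prostaglandin and histamine enzymes were higher and 4 lower. Of 28 respiratory chain subunits 6 were lower by 0.49 to 0.68 in size, a count that was 1 without wt replicate 1, 2 without MK2/3-/- replicate 1, 3 without MK2/3-/- replicate 2 and 14 with 75th percentile scaling. Of 28 ribosomal protein genes 1 was lower and 0 were higher.

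In the integrated stress response list the median difference was -1.08 over 18 genes, with 4 lower and 2 higher. Here and for the lists that follow, 14% of all genes tested were lower and 9.61% higher. Ddit4, an inhibitor of mTOR complex 1, was lower (-2.55 ± 0.53, adjusted p = 0.0023), and Ppp1r15a, which recruits a phosphatase to the initiation factor eIF2 alpha, was higher. Ppp1r15a measured 12.21, 12.83 and 12.72 in wt and 14.70, 14.33, 14.02 and 13.70 in MK2/3-/- BMDM, all MK2/3-/- arrays lying above wt (1.60 ± 0.23, adjusted p = 0.00017). The serine synthesis gene Phgdh (-2.21, adjusted p = 0.0496) was at the threshold and lost its call without wt replicate 1 or 3 or MK2/3-/- replicate 1 or 2 (up to 0.16). Of 20 survival and death genes 4 were higher, led by the pro-apoptotic gene Pmaip1 (2.69, adjusted p = 0.011, and 0.052 without wt replicate 2) and the anti-apoptotic gene Bcl2 (1.13, adjusted p = 0.0045), and 1 was lower (Tnfrsf1b, -0.55, a call that ended whichever of the 7 arrays was left out). In the other lists, 3 of 15 genes of the IL-4 receptor and alternative activation were higher and 2 lower, 2 of 10 of the IL-10 family and its receptors were higher and 2 lower, 0 of 18 proteases and matrix genes were higher and 2 lower, and 2 of 24 lysosomal genes were higher and 3 lower. The MHC class II presentation list held 2 higher of 12, both of them genes of co-stimulatory ligands (Cd86 and Cd80), so that no MHC class II gene itself was called. The counts were 0 of 13 for MHC class I genes in limma (0 higher and 2 lower at an unadjusted p below 0.05, and 1 and 2 by the methods' t-test), 1 higher of 21 for Fc and phagocytic receptors (Axl, 0.87), 1 lower of 14 for heat shock genes (Hsf1, -0.75) and 1 higher of 18 for NRF2 genes (Prdx1, 1.04). Of these, Hsf1 stayed called whichever of the 7 arrays was left out, whereas Axl, Prdx1, Cd86 and Cd80 lost their calls without wt replicate 1 (among 4 or 5 such arrays each), with adjusted p-values up to 0.085, 0.28, 0.22 and 0.15, and Cd86 (0.10) and Prdx1 (0.081) also with 75th percentile scaling.

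**Figure D4:**
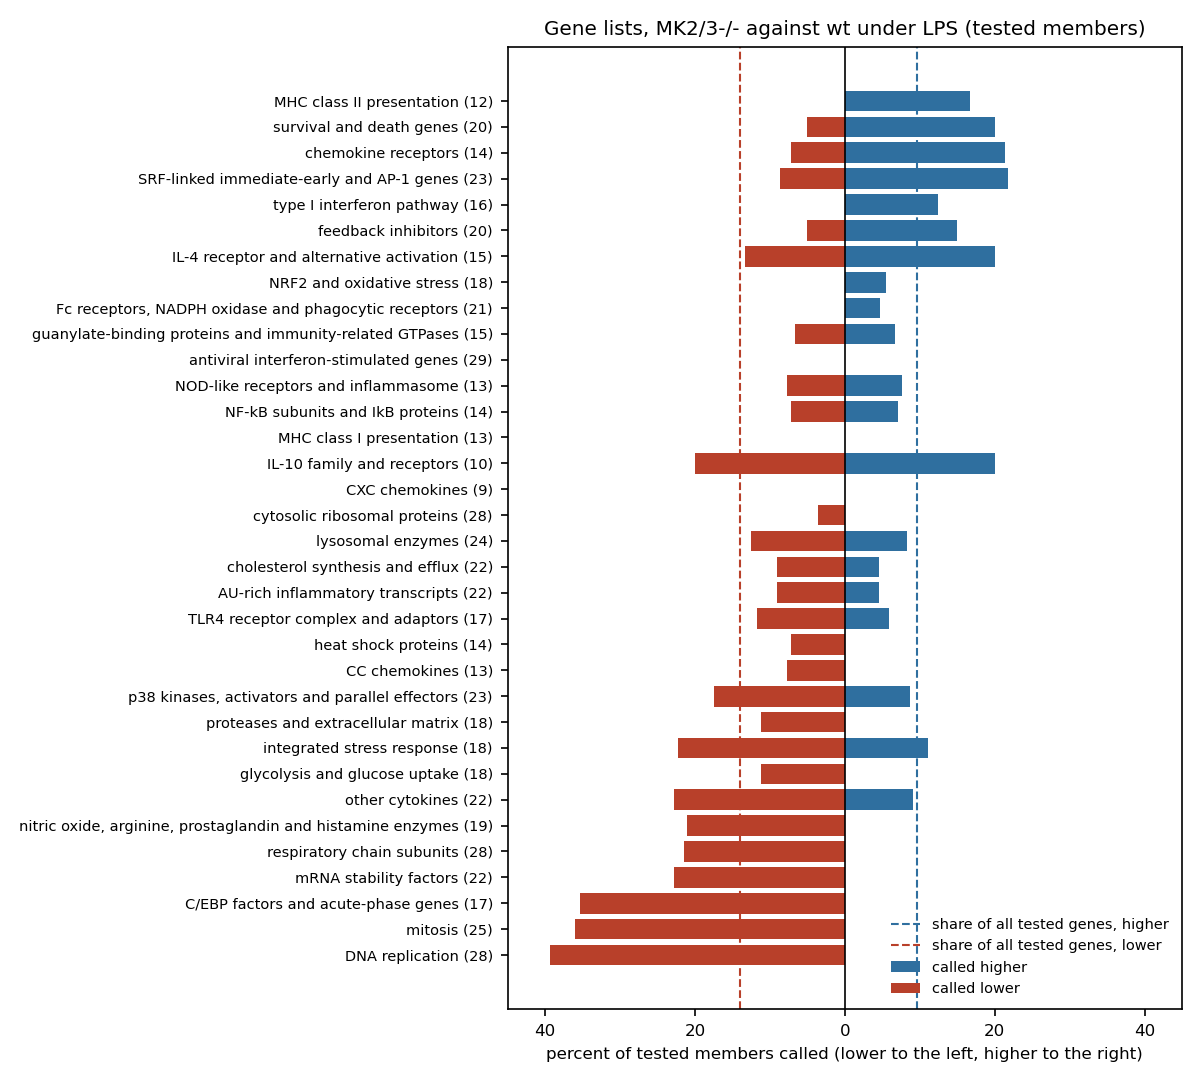
Percentage of the tested members of each gene list (horizontal axis) called higher or lower in LPS-treated MK2/3-/- than in wt BMDM. Dashed lines mark the shares over all 22383 genes, 9.61% higher and 14% lower. The DNA replication, mitosis and acute-phase lists reach 39.3%, 36% and 35.3% lower.

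Genes next to the deleted kinases were examined as a group of their own. Of the 20 tested genes nearest to Mapkapk2 on chromosome 1, 10 on each side, 3 were higher and 5 lower, and of the 20 nearest to Mapkapk3 on chromosome 9, 3 were higher and 3 lower. These shares stood beside 9.53% higher and 16% lower over the 1018 tested genes of chromosome 1, and 8.50% and 14.8% over the 1035 of chromosome 9. Il10, Il19 and Il24 (0.92) are the 3 tested genes next to Mapkapk2 on one side, and Ctse lies 8 tested genes away on the other, beyond Fam72a (0.87). Other lower neighbours of Mapkapk2 were Yod1 (-1.31), Eif2d (-1.56) and Slc26a9 (-1.23, and -0.53 with adjusted p = 0.26 with 75th percentile scaling). Near Mapkapk3, Rad54l2 (-1.92), Rbm15b (-1.55) and Tex264 (-1.0) were lower and Cacna2d2 (1.20), Iqcf5 (1.13) and Hemk1 (0.87) were higher. The other probe of Hemk1 differed by 0.05 (limma adjusted p = 0.94), so its call depended on the probe. Il24 and Fam72a lost their calls without wt replicate 1 (adjusted p = 0.12 and 0.076), Il24 also without MK2/3-/- replicate 3, Fam72a also with 75th percentile scaling (0.059), Rad54l2 without wt replicate 3 (0.052), and Iqcf5 without any 1 of 5 arrays (up to 0.16). Abhd14b and Abhd14a lie 15 and 16 tested genes from Mapkapk3 on chromosome 9. Cish, the gene directly beside Mapkapk3, which encodes a suppressor of cytokine signalling, differed by -0.84 under LPS (adjusted p = 0.24) and by -3.47 in medium (adjusted p = 0.0035).

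The difference between the genotypes in medium was measured on other arrays of the same slides. There 452 genes (2.02%) were called, 335 higher (1.5%) and 117 lower (0.523%), whereas 4270 were called with 75th percentile scaling. Of the 2150 genes that were higher under LPS, 275 were also called higher in medium and 0 lower, and their median difference in medium was 0.64. Of the 3131 that were lower under LPS, 69 were also called lower and 1 higher in medium, with a median of -0.32. Mapkapk2 (-3.46), Abhd14b (-3.86), Abhd14a (-3.43), Ctse (4.48) and Upk3a (3.44) were called in both conditions with the same sign. The number called in medium was between 20 and 230 when single medium arrays were left out, the lowest without MK2/3-/- replicate 1.

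The LPS response itself differed between MK2/3-/- and wt BMDM for 152 genes (0.679%), 24 (0.107%) with a larger and 128 (0.572%) with a smaller or more negative response in MK2/3-/- BMDM. This contrast shares its LPS arrays with the direct comparison, and a constant shift of a whole slide on the log2 scale drops out of it. The LPS response of Prokr1 was 2.62 in wt and -2.27 in MK2/3-/- BMDM (difference of the responses -4.89, adjusted p = 0.017). Prokr1 was not well above background on any LPS-treated MK2/3-/- array, so the sizes of that response and of the difference are uncertain. Its difference between the genotypes under LPS ranged from -4.90 to -1.34 over the alternative settings. Stambpl1, a deubiquitinase gene, measured 11.13, 10.17 and 9.97 in LPS-treated wt and 5.86, 6.20, 6.77 and 7.85 in MK2/3-/- BMDM, and the response was 0.17 and -3.75. In the positive direction, Ell3 responded by 1.24 in wt and 6.03 in MK2/3-/- BMDM (4.79, adjusted p = 0.031). Lck, a Src-family kinase best known from T cells, measured 10.68, 10.82 and 10.93 in LPS-treated wt and 13.58, 13.16, 12.66 and 13.77 in MK2/3-/- BMDM. The response of Lck was 2.68 and 5.26 (2.58, adjusted p = 0.017). Mab21l3 (2.60), Armcx6 (2.81) and Otor (2.81) followed the same pattern, and Zswim1 (-2.67), the orphan receptor gene Gpr146 (-3.12) and Zfp61 (-3.02) the opposite one. The number of genes ranged from 9 without medium-treated MK2/3-/- replicate 2 to 564 without LPS-treated MK2/3-/- replicate 4, and leaving out any array other than LPS-treated wt replicate 2 moved it by more than 1.5-fold.

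**Figure D5:**
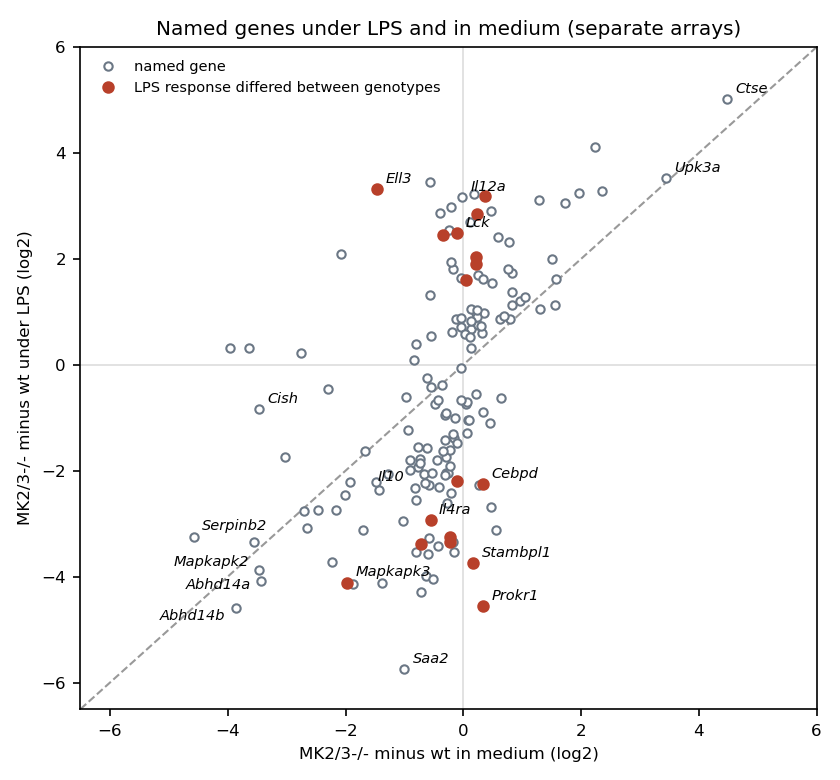
Difference between MK2/3-/- and wt BMDM under LPS (vertical axis, log2) against that in medium (horizontal axis, log2) for the named genes, each a point; filled points are genes whose LPS response differed between the genotypes. Abhd14b, Mapkapk2 and Ctse lie near the dashed line of equal differences, and Saa2, Prokr1 and Stambpl1 lie far below it.

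MK2-/- BMDM, which keep MK3, were set beside the double knockout under LPS, with the same wt arrays as reference. There 2595 genes (11.6%) were called against wt, 4.53% of all genes higher and 7.07% lower. The direct contrast of the knockouts, MK2/3-/- against MK2-/-, called 3030 genes (13.5%), with 7.73% of all genes higher and 5.8% lower. MK2-/- arrays lay on a slide of their own and were scanned apart, so genotype, slide and scan cannot be told apart in either contrast. Thbd differed from wt by -4.29 in MK2/3-/- and by -4.13 in MK2-/- BMDM (adjusted p = 0.0098), and between the knockouts by -0.16 (adjusted p = 0.94). For Ctse the differences from wt were 5.01 and 5.32, and that between the knockouts was -0.30 (adjusted p = 0.90). For Mcm2 the differences from wt were -3.34 and -2.82 (adjusted p = 0.041) and that between the knockouts -0.51 (adjusted p = 0.74). Other genes differed between the knockouts. Abca1 differed from wt by -2.69 and 0.09, and between the knockouts by -2.78 (adjusted p = 0.0028). For Pfkfb3 the values were -2.61, -0.46 and -2.15 (adjusted p = 0.00058), for Lck 2.48, 0.34 and 2.14 (adjusted p = 2.0e-05), and for Abhd14b -4.59, -0.85 and -3.74 (adjusted p = 3.1e-06). Il10 differed from wt by -2.32 and -1.55 (adjusted p = 0.042), and the difference of -0.77 between the knockouts did not pass the test (adjusted p = 0.27). Nod1 differed from wt by -0.26 and -1.27 (adjusted p = 0.0040), and MK2/3-/- BMDM were higher than MK2-/- BMDM by 1.02 (adjusted p = 0.0043).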

How the data were processed

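RNA of each BMDM culture was hybridised to 1 single-colour Agilent array. The authors deposited scanner output of Agilent Feature Extraction 11.0.1.1, whose processed signal is an intensity after background correction, and a table of log2 values. The intensity columns were used here, and the deposited log2 table served as an alternative. Each array holds 62976 spots. Control spots and spots flagged as outliers were left out, log2 processed signals were quantile normalised over 22 arrays, and a probe was tested where 3 or more arrays measured it well above background. RefSeq accessions named 27509 of 29150 RefSeq probes through the RefSeq gene table. Each gene was represented by its brightest kept probe under its RefSeq symbol. The number of arrays limits the precision.

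A linear model over all groups was fitted in R 4.3.3 with limma 3.58.1, with Benjamini-Hochberg adjustment over 22383 genes and a threshold of 0.05. On simulated data for this comparison, in which 200 of 22383 genes were changed, 36% of those changed 2-fold and 64% of those changed 4-fold were recovered. The comparison itself called 5281 genes, so the adjustment for many tests acts differently there. The simulated shares therefore do not measure how many real changes it recovered. Named were the deleted kinases, the 12 largest called differences each way and the 6 largest each way per LPS class among genes with a symbol, no overlap between the groups and signals well above background on all arrays of the brighter group, the 5 with the largest called differences of the LPS response each way, called neighbours of the kinases, genes assayed by RT-qPCR, and up to 3 called list members each way, and the 2 brightest list members not called. Some genes of this rule are not reported here, and other genes are marked in the text. Members and gene lists were chosen with earlier results of these data known. Promoter words were searched in Python 3.11.15. Alternatives changed the normalisation, background correction, filter, probe choice, samples, weights, test and replicate block, and left out single arrays. The array design uses an older genome build, so no array coordinates are given.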

Additional observations from a re-analysis of the deposited data

Results flagged for a closer look

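In 9 of 164 genes examined, 1 of the 4 LPS-treated MK2/3-/- arrays stood apart from the other 3 by Dixon's criterion, and chance gives about 1 in 20. These were replicate 3 for Htra4 (9.10), Hemk1 (9.22), Ier5 (12.3) and Bcl2 (10.0), replicate 4 for Rad54l2 (8.02), Osm (10.5) and Ereg (5.76), replicate 1 for Slc26a9 (4.70) and replicate 2 for Map3k8 (12.8), all log2 signals.

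The LPS response differed between MK2/3-/- and wt BMDM for 17 of the 164 genes (limma, adjusted p below 0.05). It was smaller or more negative in MK2/3-/- BMDM for Prokr1 (-4.89, with LPS-treated MK2/3-/- signals not well above background), Stambpl1 (-3.92), Gpr146 (-3.12), Zfp61 (-3.02) and Zswim1 (-2.67). The same held for Cebpd (-2.59), Il4ra (-2.38), Mapkapk3 (-2.14) and Mapk14 (-2.09). It was larger for Ppp1r15a (1.55), Ier5 (1.69), Rgs2 (1.82), Lck (2.58), Mab21l3 (2.60), Armcx6 (2.81), Otor (2.81) and Ell3 (4.79).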

How the results depend on the processing

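With 75th percentile scaling 8195 genes were called (4693 higher), with 5 lower mitosis genes, 14 lower respiratory chain genes, 3.44% of LPS-repressed genes higher, 4270 genes called in medium and 21 differences of the LPS response. Over all probes 9320 were called (4571 higher, 4749 lower), with only the 7 arrays 1464 (537 and 927), with the methods' t-test and Benjamini-Hochberg adjusted values 62 (20 and 42), and with a 2-fold minimum 3312 (1216 higher). Without MK2/3-/- replicates 3 and 4, chosen after seeing the data, 19 replication, 16 mitosis and 1 higher interferon-stimulated genes were called. Leaving out 1 array gave 3500 to 5618 called genes (1388 to 2140 higher, 2112 to 3478 lower), 4 to 18 lower replication, 3 to 12 lower mitosis and 1 to 9 lower respiratory chain genes, 3 to 5 higher SRF and AP-1 genes, 4.25% to 10.1% of induced genes higher and 4.42% to 6.76% lower, 20 to 230 genes in medium and 9 to 564 differences of the LPS response. The cause of these shifts was not tested.

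Same-numbered wt and MK2/3-/- LPS arrays deviated together with r of 0.067, 0.059 and 0.12, which does not pair them, and not every array correlated best with its own number. With the number as a replicate block 5843 genes were called under LPS, 234 in medium and 316 for the LPS response. Of 4066 recomputed single-gene values for 164 genes, 3533 kept direction and side of the threshold, 509 lost it, 18 gained it and 6 reversed: Gpr35 (0.15, probes well above background on all 7 arrays), Dsc3 (-0.90) and Zfp61 (0.82) with the probe of highest induction in wt, Tnf (-0.038, array weights), Il1b (-0.11, replicate block) and Mapkapk5 (-0.135 to 0.0042 when single arrays were left out, positive without MK2/3-/- replicate 1). Of 138 called genes named, 83 stayed called whichever array was left out, and 5 in every alternative run.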
